A study of Homo sapiens with 8 samples.

Results

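The genes of bile acid synthesis and of the farnesoid X receptor (FXR) axis were examined in HepG2 cells, a human liver cancer cell line, treated with plastic-related antioxidants. The 10 genes were chosen by name, with earlier results of these data known: CYP7A1, CYP8B1, CYP27A1, CYP7B1, BAAT, NR1H4, NR0B2, ABCB11, SLC51B and FGF19. All 10 were among the 60230 genes of the count table. The HepG2 cells overexpressed cytochrome P450 2C19 (CYP2C19) and were seeded 24 h before treatment. They were then treated for 24 h with metylcresol (compound 4), tetrabut (compound 5), cyclohexil (compound 6) or the solvent DMSO. RNA was sequenced from 2 replicates in each of the 4 groups, 8 libraries in all, and the labels call the replicates day 1 and day 2. Each compound was given at its own IC50, so the concentrations of the compounds were not the same. Compounds 4 and 6 are bisphenols with a methylene bridge, with a tert-butyl group in compound 4 and a cyclohexyl group in compound 6 beside the hydroxyl group. Compound 5 has an ethylidene bridge and carries tert-butyl groups both beside and opposite the hydroxyl group.

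Hepatocytes make bile acids from cholesterol. CYP7A1 starts the classic route and CYP8B1 directs it towards cholic acid, whereas CYP27A1 and CYP7B1 act in the acidic route, and BAAT joins the finished bile acids to glycine or taurine. FXR, encoded by NR1H4, is the nuclear receptor that bile acids activate. It is known to induce NR0B2 (the small heterodimer partner SHP, a repressor of CYP7A1), the bile salt export pump ABCB11, the export subunit SLC51B (organic solute transporter beta) and the hormone FGF19, through which bile acids limit their own synthesis.

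The libraries held between 9791659 and 17814595 counts each, and 23080 genes had at least 1 count. Levels are given as CPM, that is counts relative to the library size, which was scaled by the trimmed mean of M-values. All 7 hepatocyte markers (ALB, APOA1, APOB, TTR, TF, SERPINA1 and AFP) were expressed in each library. Their summed level was 50166–54167 CPM with DMSO, 34538–41949 CPM with compound 4, 42885–44226 CPM with compound 5 and 37230–43337 CPM with compound 6. Of these 7 markers, 4 fell with compound 4 (APOA1, APOB, TF and AFP), and none passed the threshold, an adjusted p under 0.05 in edgeR's quasi-likelihood test over all tested genes, with compound 5 or 6. Of all 13400 tested genes, 3.91% were lower with compound 4, and 8.3% and 0.575% passed in either direction with compounds 5 and 6. Of the 4 bile duct markers, KRT19, SOX9 and EPCAM were expressed and KRT7 was at 0 in 7 of 8 libraries. Of the markers of other cells, PTPRC had 0 counts in each library, and COL1A1 and PECAM1 stayed under 1 CPM. The overexpressed CYP2C19 was at 27.7 and 16.4 CPM with DMSO, 31.4 and 44.3 CPM with compound 4, 52.8 and 38 CPM with compound 5, and 23.9 and 21.2 CPM with compound 6. It was 1.05 higher on the log2 scale with compound 5 (SE 0.259, adjusted p = 0.0395), and the part of CYP2C19 or of the hepatocyte markers in the results was not tested.

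Of the 10 genes, 6 had enough counts to be tested, 2 had too few and 2 were below detection. Below detection means at most 3 counts in each library, which equals 0.171–0.307 CPM. ABCB11, which exports bile salts into the canaliculus, had 0 counts in all 8 libraries, which allows a level of up to 0.171–0.307 CPM for counting error alone. CYP7B1, an oxysterol hydroxylase of the acidic route, had 2 counts in compound 4 replicate 1, 1 count in compound 5 replicate 2 and 0 elsewhere. CYP7A1 and FGF19 were detected at up to 10 and 17 counts, respectively, and were left out of the test by the filter on low counts. The hepatocyte uptake carriers SLC10A1 and SLCO1B1, among the other bile acid genes read, were also below detection.

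On GRCh38, NR1H4 (ENSG00000012504) lies at chr12:100473708-100564413 on the plus strand, BAAT (ENSG00000136881) at chr9:101360417-101383519 on the minus strand and CYP27A1 (ENSG00000135929) at chr2:218781749-218815293 on the plus strand. CYP8B1 (ENSG00000180432) lies at chr3:42856005-42876165, ABCB11 (ENSG00000073734) at chr2:168915498-169031324 and FGF19 (ENSG00000162344) at chr11:69698232-69704642, all on the minus strand. CYP8B1 overlaps ACKR2 and KRBOX1 on the opposite strand, SLC51B (101–1288 counts) overlaps RASL12, which had at most 1 count in any library, and BAAT contains the pseudogene FYTTD1P1 on its own strand. These overlaps are of whole gene spans, and shared exons were not examined. Whether the counting used strand is not given in the sources used here, so counts of overlapping genes with reads of their own are uncertain.

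On the per-length scale (CPM per kb of exon), CYP27A1 and NR0B2 were highest with DMSO, at 60.0 and 57.2. They were followed by BAAT (19.8), SLC51B (12.7), NR1H4 (7.86), CYP8B1 (0.609), CYP7A1 (0.281) and FGF19 (0.124). With compound 5, NR0B2 reached 124 and SLC51B reached 69.4 on this scale, while CYP27A1 was at 62.6. Genes next to each other in this order at low levels, such as CYP7A1 and FGF19, rest on 18 and 7 counts over both DMSO libraries.

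SLC51B, the partner that organic solute transporter alpha needs to export bile acids, showed the largest increase among the 6 tested genes. Its level was 10.4 and 13.6 CPM with DMSO, 30.3 and 28.7 CPM with compound 4, 57.2 and 73.3 CPM with compound 5, and 16.8 and 23.9 CPM with compound 6. The treated libraries of every compound lay above both DMSO libraries, and those of compound 5 lay above all others. The increase was 5.44-fold with compound 5 (log2-fold change 2.44, SE 0.207, adjusted p = 0.00123) and 2.45-fold with compound 4 (1.29, SE 0.209, adjusted p = 0.00841). With compound 6 the log2-fold change was 0.76 (SE 0.214, 95% interval 0.28–1.24) and did not pass the threshold (adjusted p = 0.116). DESeq2 put the value for compound 6 past the threshold (adjusted p = 0.0362), and over all alternatives the adjusted p was 0.00131–0.574. The increase with compound 4 lost its call without DMSO replicate 1 (adjusted p = 0.0559), DMSO replicate 2 (0.0633) or compound 4 replicate 2 (0.0545), whereas that with compound 5 kept it in all 14 alternatives.

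The SLC51B gene (ENSG00000186198) is at chr15:65045370-65053396 on the plus strand of GRCh38. FXR binds DNA with the retinoid X receptor, typically at an inverted repeat of the core site AGGTCA with a single base between the copies (IR-1, AGGTCANTGACCT). RefSeq (GRCh38.p14) promoter windows of 5 of the 10 genes, 6 windows in all, were read on both strands over the 250 bases before the start. They belong to SLC51B, ABCB11, CYP27A1, BAAT and NR1H4. No window of the remaining genes was read, so how close their matches come is not known. The windows of SLC51B and ABCB11 are printed because they hold the closest IR-1 matches among the 6 windows read. These lie in the gene with the largest increase and in a gene with no counts. Capitals mark the best match to IR-1, which differs from it at 2 of 12 defined bases in both. The stretch printed for SLC51B is chr15:65045137-65045369 (plus strand), 233 bases of its 250-base window, since the last 17 bases are exonic in GENCODE 29. The ABCB11 window is chr2:169031325-169031574 (minus strand), and both are written along the gene.
SLC51B: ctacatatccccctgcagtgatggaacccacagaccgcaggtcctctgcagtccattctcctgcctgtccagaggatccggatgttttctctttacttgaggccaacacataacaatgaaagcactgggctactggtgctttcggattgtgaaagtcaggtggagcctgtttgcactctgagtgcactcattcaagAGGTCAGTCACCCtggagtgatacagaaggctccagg
ABCB11: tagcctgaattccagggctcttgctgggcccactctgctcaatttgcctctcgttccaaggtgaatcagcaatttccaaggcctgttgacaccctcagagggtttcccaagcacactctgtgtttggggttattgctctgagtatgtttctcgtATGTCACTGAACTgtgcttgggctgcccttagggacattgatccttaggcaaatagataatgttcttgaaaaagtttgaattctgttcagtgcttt
The SLC51B match, AGGTCAGTCACCC, lies 54 to 42 bases before the RefSeq start, which is 17 bases downstream of the gene start given above, and opens with an exact core site. The ABCB11 match, ATGTCACTGAACT, lies 96 to 84 bases before the start. Capitals show closeness in letters only, and binding of FXR there or elsewhere in the windows was not tested. A match with at most 2 mismatches was present in 0.945% of 35116 RefSeq promoter windows of the same length, and an exact core site in 12.1%. The limit of 2 mismatches was chosen after the sequences were seen. An exact core site was in 3 of the 6 windows, those of SLC51B, NR1H4 and 1 of the 2 of BAAT. The NR1H4 window (chr12:100503110-100503359) lies inside the gene as given above, and the CYP27A1 window is wholly exonic in GENCODE 29. For both BAAT windows, the bases after the start were not found in a GENCODE 29 transcript of BAAT.

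NR0B2, the atypical receptor SHP that lacks a DNA-binding domain and represses CYP7A1, rose with compounds 4 and 5. Its level was 69.6 and 62.7 CPM with DMSO, 119 and 111 CPM with compound 4, 146 and 141 CPM with compound 5, and 92.6 and 99.6 CPM with compound 6. The groups did not overlap, with compound 5 highest and DMSO lowest. NR0B2 was 2.17-fold higher with compound 5 (log2-fold change 1.12, SE 0.106, adjusted p = 0.00188) and 1.74-fold higher with compound 4 (0.80, SE 0.106, adjusted p = 0.00427). With compound 6 the log2-fold change was 0.54 (SE 0.107, 95% interval 0.30–0.78) with an adjusted p of 0.0541, and over the alternatives its adjusted p was 0.00448–0.438, DESeq2 giving 0.00711. Without DMSO replicate 2 the call for compound 4 was lost (adjusted p = 0.0790). NR0B2 (ENSG00000131910, chr1:26911489-26913966, minus strand) overlaps NUDC on the opposite strand. NUDC had log2-fold changes of −0.00464, −0.0334 and −0.0839 with compounds 4, 5 and 6, none past the threshold.

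BAAT, the enzyme that conjugates bile acids, rose with compound 4. Its level was 74.5 and 59.8 CPM with DMSO, 101 and 109 CPM with compound 4, 105 and 86.3 CPM with compound 5, and 72.9 and 72.7 CPM with compound 6. Both libraries of compounds 4 and 5 lay above both DMSO libraries, while those of compound 6 lay between them. BAAT was 1.56-fold higher with compound 4 (log2-fold change 0.64, SE 0.139, adjusted p = 0.0223) and had a log2-fold change of 0.51 with compound 5 (SE 0.139, adjusted p = 0.0517). With the replicate number as a block, the value for compound 5 passed the threshold (adjusted p = 0.0418), as it did with DESeq2 (0.0226), within a range of 0.00407–0.293 over the alternatives. With compound 6 the log2-fold change was 0.12 (95% interval −0.20 to 0.43). The call for compound 4 was lost without DMSO replicate 2 (adjusted p = 0.213) or compound 4 replicate 2 (0.131).

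NR1H4, the gene of FXR itself, fell with compound 4. Its level was 24.3 and 32.7 CPM with DMSO, 18.1 and 16.3 CPM with compound 4, 21.4 and 23.2 CPM with compound 5, and 24.4 and 26.0 CPM with compound 6. Both libraries of compounds 4 and 5 lay under the lower DMSO library, and those of compound 6 lay within the DMSO range. With compound 4 it fell by 0.74 on the log2 scale (SE 0.161, adjusted p = 0.0233), to 0.600 of the DMSO level. The log2-fold change was −0.36 with compound 5 (95% interval −0.71 to −0.01, adjusted p = 0.168) and −0.18 with compound 6 (−0.54 to 0.17). The call for compound 4 was lost without DMSO replicate 2 (adjusted p = 0.220), compound 4 replicate 1 (0.0504) or compound 4 replicate 2 (0.151).

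The 2 cytochrome P450 enzymes of synthesis that could be tested did not pass the threshold. CYP27A1, the mitochondrial sterol 27-hydroxylase of the acidic route, was at 183 and 175 CPM with DMSO, 179 and 169 CPM with compound 4, 178 and 196 CPM with compound 5, and 156 and 162 CPM with compound 6. Its log2-fold changes were −0.04 (95% interval −0.27 to 0.18), 0.06 (−0.16 to 0.28) and −0.17 (−0.40 to 0.05) with compounds 4, 5 and 6. CYP8B1, the sterol 12-alpha-hydroxylase of cholic acid synthesis, was at 3.48 and 1.93 CPM with DMSO, 3.10 and 0.912 CPM with compound 4, 1.73 and 2.56 CPM with compound 5, and 4.41 and 1.61 CPM with compound 6. All 4 groups overlapped, and the 95% interval of its log2-fold change reached from −1.85 to 0.95 with compound 4, from −1.65 to 1.05 with compound 5 and from −1.19 to 1.52 with compound 6, so changes within these bounds were not resolved by these libraries.

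CYP7A1, the rate-limiting enzyme of the classic route, had 8 and 10 counts with DMSO, 4 and 6 with compound 4, 2 and 6 with compound 5, and 6 and 0 with compound 6. Its summed counts were 18, 10, 8 and 6 in that order, and both DMSO libraries were above all treated libraries in CPM (0.820 and 0.837 against at most 0.589). In a fit without the filter on low counts its log2-fold changes were −0.98, −1.61 and −1.49 with compounds 4, 5 and 6, with adjusted p of 0.675, 0.271 and 0.510. FGF19, the hormone that signals through FGFR4 and beta-klotho, had 1 and 6 counts with DMSO, 2 and 8 with compound 4, 10 and 17 with compound 5, and 3 and 5 with compound 6. In CPM the libraries of compound 5 (0.823 and 0.967) were above all others (0.102–0.608). Without the filter its log2-fold change with compound 5 was 1.48 (adjusted p = 0.278), and with compounds 4 and 6 it was 0.36 and 0.26. Neither gene passed the threshold in that fit.

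**Figure D1:**
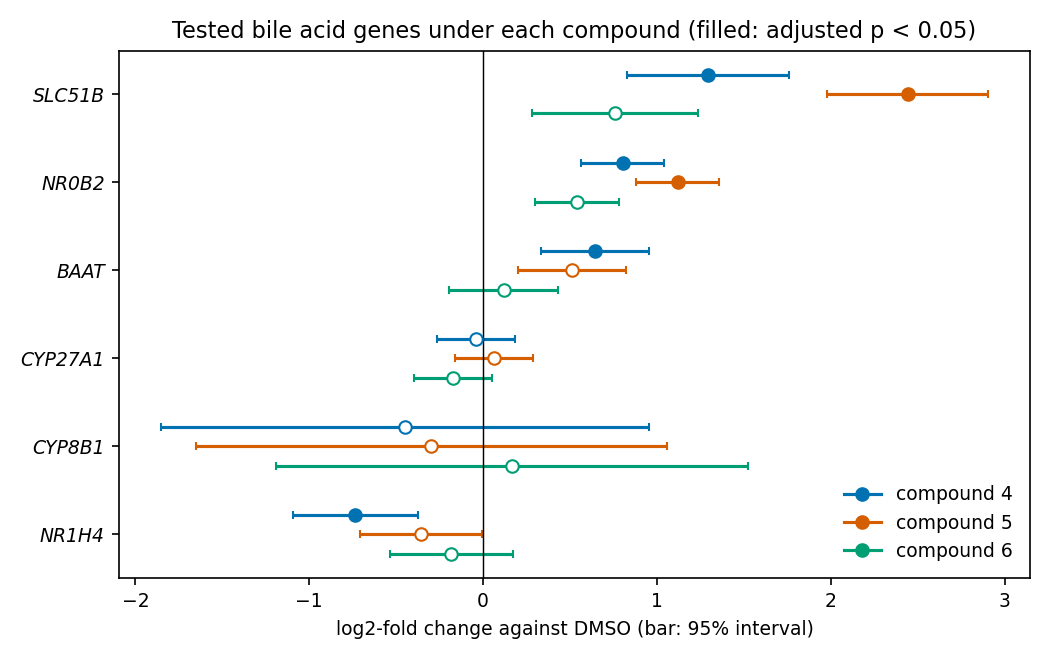
Log2-fold change against DMSO (x axis) of the 6 tested bile acid genes (y axis) with compounds 4, 5 and 6. Points are edgeR estimates from 2 replicates per group, bars are 95% intervals, and filled points passed the threshold of 0.05. SLC51B (2.44) and NR0B2 (1.12) lie farthest right with compound 5, and NR1H4 (−0.74) is the filled point left of 0.

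Counted over the 6 tested genes, 4 passed the threshold with compound 4, 3 higher and 1 lower, where 9.51% of all 13400 tested genes passed (5.6% higher and 3.91% lower). With compound 5, 2 of the 6 passed, both higher, where 8.3% of all tested genes passed (5.35% higher and 2.95% lower). With compound 6, edgeR called 0 of the 6, where 0.575% of all tested genes passed (0.493% higher and 0.0821% lower) and 2490 had an unadjusted p under 0.05. DESeq2 called 2 of the 6 with compound 6, NR0B2 and SLC51B, where it called 547 of all 13400 tested genes. The median log2-fold change of the 6 genes was 0.30, 0.29 and 0.14 with compounds 4, 5 and 6, beside 0.0131, 0.00373 and 0.0198 over all tested genes. The 3 comparisons share the DMSO libraries. The genes were chosen with earlier results of these data known, so the shares beside those of all tested genes are a description only. Leaving out DMSO replicate 2 removed all 4 calls for compound 4 and left 0, and leaving out compound 4 replicate 2 left 1.

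The compounds were also compared with each other each at its own IC50, in 3 pairs with p-values adjusted over all genes of each pair. SLC51B was lower with compound 4 than with compound 5 (log2 difference −1.15, SE 0.191, adjusted p = 0.0482) and was the single call among the 6 genes, where 0.313% of all tested genes passed (0.187% higher and 0.127% lower). It was also lower with compound 6 than with compound 5 (−1.68, SE 0.198, adjusted p = 0.0104), as was NR0B2 (−0.58, SE 0.105, adjusted p = 0.0366), where 1.03% of all tested genes passed (0.507% higher and 0.522% lower). In a fit of the 4 libraries compared alone, the difference of SLC51B between compounds 4 and 5 (adjusted p = 0.0719) and that of NR0B2 between compounds 6 and 5 (0.0991) were not past the threshold. The first was also lost without any 1 of 7 libraries, all but compound 6 replicate 2, with adjusted p of up to 0.235. The difference of NR0B2 was lost without any single library (0.0501–0.345), and that of SLC51B between compounds 6 and 5 without compound 6 replicate 1 (0.0939). Between compounds 4 and 6, which differ in the group beside the hydroxyl, edgeR called 0 of the 6 genes and 0% of all tested genes, with 945 genes at an unadjusted p under 0.05. The log2 difference of compound 4 from compound 6 was 0.53 for SLC51B (95% interval 0.09–0.98), 0.26 for NR0B2 (0.03–0.50), 0.53 for BAAT (0.22–0.84) and −0.55 for NR1H4 (−0.92 to −0.19), with adjusted p from 0.404 to 0.633. DESeq2 called 59 of the 13400 genes in this pair and 0 of the 6. BAAT passed the threshold without the filter on low counts (adjusted p = 0.0185).

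Over the 8 libraries, NR0B2 and SLC51B varied together (Pearson r = 0.94 of log2 CPM), and BAAT and NR1H4 varied in opposite directions (r = −0.93). These values describe 8 libraries that fall into 4 treatment groups and share their depth within each library, and no test was made. The genes most like SLC51B by this measure were IMPDH1 (r = 0.99), PLCXD1 (0.98) and UBE2J1 (0.98), and those most like NR0B2 were PLIN3 (0.99), PLPP5 (0.99) and RASSF3 (0.98). Among the genes closest to BAAT were ENSG00000261468 (0.98) and SLC22A23 (0.98). NR1H4 was closest to ENSG00000229337 (0.98), TRA2A (0.97) and SUV39H2 (0.95).

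Another 44 bile acid genes were read in 4 lists: synthesis enzymes, transporters, regulators and further FXR targets. These lists were also chosen with earlier results of these data known, so their shares are a description only. Of these, 37 were tested, AKR1C4 and FETUB were detected at too few counts, and 5 were below detection (CH25H, CYP46A1, SLC10A1, SLC10A2 and SLCO1B1). With compound 4, 4 of the 37 were higher and 4 lower (10.8% and 10.8%), where 5.6% and 3.91% of all tested genes were. With compound 5, 9 were higher and 1 lower (24.3% and 2.70%), where 5.35% and 2.95% of all tested genes were. The 9 include KNG1, which could enter the test only by being high with compound 5, so its part in that share is not support. With compound 6, 2 were higher and 0 lower (5.41% and 0%), where 0.493% and 0.0821% of all tested genes were. Their median log2-fold changes were −0.04, 0.04 and −0.16. Of these 20 calls, 3 held with each library left out in turn (ABCC3 with compound 4, SLC51A with compound 5 and KNG1 with compound 5), of which KNG1 entered the test only through the compound 5 libraries. Without DMSO replicate 2, 17 of the 20 were lost, and without DMSO replicate 1, 11. Without compound 4 replicate 1 and 2, 1 and 6 were lost, without compound 5 replicate 1 and 2, 6 and 3, and without compound 6 replicate 1 and 2, 4 and 4.

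Among the transporters, 7 were tested. SLC51A, the alpha subunit that pairs with SLC51B, was at 7.69 and 8.12 CPM with DMSO, 10.4 and 6.69 CPM with compound 4, 45.2 and 49.2 CPM with compound 5, and 10.4 and 8.05 CPM with compound 6. The libraries of compound 5 stood above all others, 5.96-fold over DMSO (log2-fold change 2.58, SE 0.206, adjusted p = 0.000906). The difference was also past the threshold against compound 5 for compound 4 (−2.48, adjusted p = 0.00151) and for compound 6 (−2.36, adjusted p = 0.00394). Both subunits rose with compound 5, whereas with compound 4 SLC51B rose and SLC51A had a log2-fold change of 0.10 (95% interval −0.40 to 0.60).

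ABCC3, an exporter of bile acid conjugates at the basolateral membrane, had the opposite pattern. It was at 63.0 and 51.2 CPM with DMSO, 130 and 140 CPM with compound 4, 56.6 and 52.0 CPM with compound 5, and 133 and 135 CPM with compound 6. It rose 2.37-fold with compound 4 (adjusted p = 0.00156) and 2.36-fold with compound 6 (adjusted p = 0.00678), and was higher with both than with compound 5 (log2 differences 1.32 and 1.31, adjusted p = 0.00349 and 0.00394). ABCC2, an exporter at the canalicular membrane, rose with all 3 compounds, from 584 and 565 CPM to 979 and 1197 CPM with compound 4, 1220 and 1016 CPM with compound 5, and 962 and 1062 CPM with compound 6 (log2-fold changes 0.92, 0.96 and 0.82, edgeR adjusted p = 0.00524, 0.00555 and 0.0420). With single libraries left out these changes ran over 0.77–1.05, 0.81–1.09 and 0.75–0.88, and no call of ABCC2 held in every such fit. SLCO1B3, an uptake carrier, rose with compound 5 (1.09, SE 0.288, adjusted p = 0.0476). This call was lost without any single library (adjusted p = 0.0546–0.213) and in the fit of the 4 samples compared (0.0792).

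**Figure D2:**
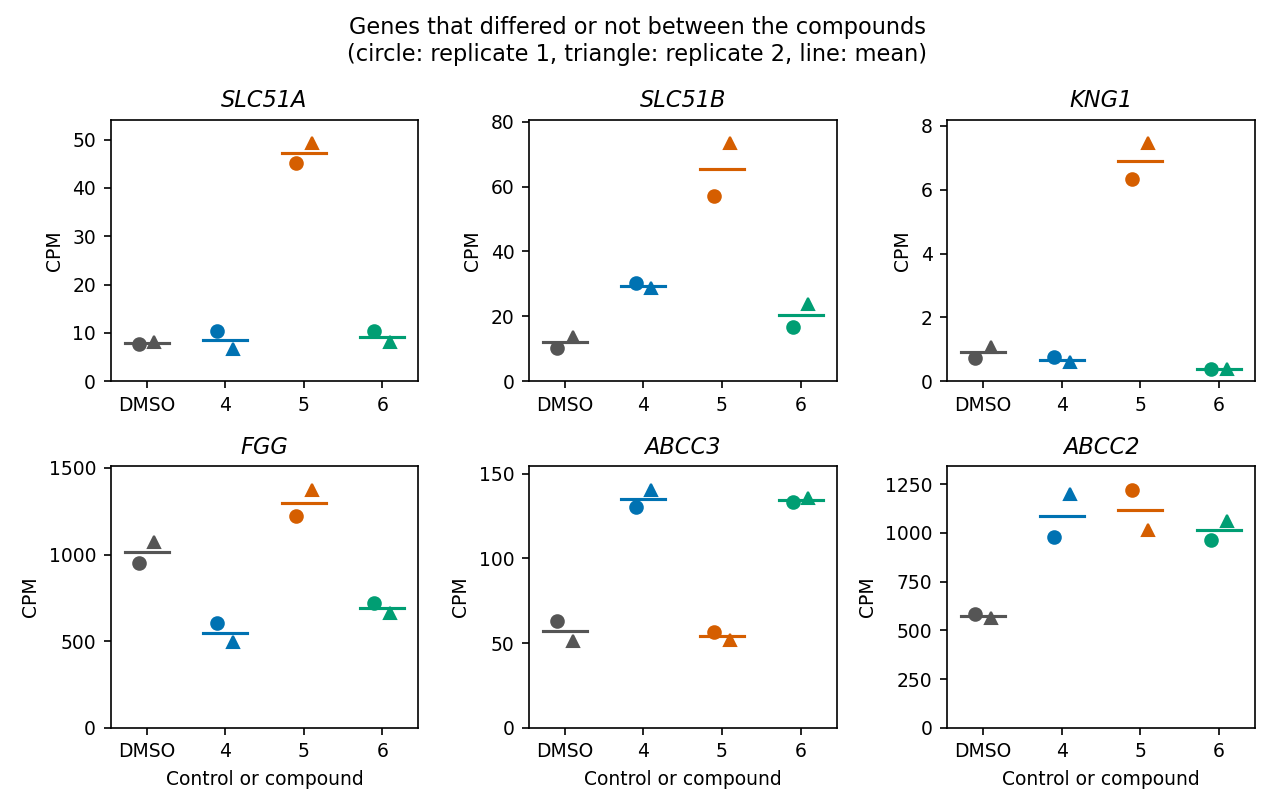
Levels in CPM (y axis, from 0) of SLC51A, SLC51B, KNG1, FGG, ABCC3 and ABCC2 with DMSO and compounds 4, 5 and 6 (x axis). Circles and triangles are replicates 1 and 2, and lines are group means. SLC51A (45.2 and 49.2 CPM) and KNG1 (6.34 and 7.45 CPM) are high with compound 5, ABCC3 is high with compounds 4 and 6, and ABCC2 is above DMSO with all 3.

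Of the 10 other synthesis enzymes tested, 1 fell with compound 4 (10.0%, a share near the 9.51% called over all tested genes), and none passed the threshold with compound 5 or 6, with edgeR and with DESeq2, where 8.3% and 0.575% of all tested genes did with edgeR. DESeq2 called 1349 and 547 of all 13400 tested genes with compounds 5 and 6. AKR1D1, the reductase that sets the bent ring of bile acids, fell from 5.43 and 6.95 CPM with DMSO to 2.44 and 1.52 CPM with compound 4 (log2-fold change −1.66, SE 0.309, adjusted p = 0.0143). The values with compounds 5 and 6 were −0.80 and −0.67, neither past the threshold. The highest value with compound 5 was that of CYP39A1, an oxysterol hydroxylase (0.65, adjusted p = 0.0537), and the highest with compound 6 was also CYP39A1 (0.34).

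Of the 9 regulators, 2 passed the threshold with compound 4 and 3 with compound 5, beside 9.51% and 8.3% of all tested genes. MAFG, a repressor of bile acid synthesis genes, rose with compounds 4 (1.00, SE 0.210, adjusted p = 0.0204) and 5 (1.21, SE 0.210, adjusted p = 0.0128). PPARGC1A, a coactivator, rose with compound 5 (0.89, SE 0.184, adjusted p = 0.0222), a call lost in the fit of the 4 samples compared (0.0520). KLB, the beta-klotho coreceptor of FGF19, fell with compounds 4 (−1.23, SE 0.236, adjusted p = 0.0153) and 5 (−1.11, SE 0.233, adjusted p = 0.0227), from 86.3 and 77.1 CPM to 43.8 and 25.9 CPM and to 36.1 and 39.4 CPM. With compound 6 KLB was at 44.9 and 31.2 CPM (−1.10, adjusted p = 0.0601), and no regulator passed the edgeR threshold with that compound. DESeq2 called 2 regulators with compound 6, KLB and MAFG (0.75 with edgeR), where it called 547 of all 13400 tested genes.

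Of the 11 further FXR targets tested, 1 was higher and 2 lower with compound 4, 4 were higher with compound 5, KNG1 among them, and none passed the edgeR threshold with compound 6. DESeq2 called 3 with compound 6, the fibrinogen genes FGA, FGB and FGG, where it called 547 of all 13400 tested genes. Over all tested genes, edgeR called 9.51%, 8.3% and 0.575% with compounds 4, 5 and 6. The highest and lowest values with compound 6 were those of OSGIN1 (0.52) and KNG1 (−1.22). KNG1, the precursor of kinins, was at 0.717 and 1.09 CPM with DMSO, 0.751 and 0.608 CPM with compound 4, 6.34 and 7.45 CPM with compound 5, and 0.392 and 0.379 CPM with compound 6. Its level with compound 5 was 7.48-fold that with DMSO (log2-fold change 2.90), resting on 77 and 131 counts against 7 and 13. KNG1 passed the filter on low counts only because of the compound 5 libraries, so its calls involving compound 5 are given as a description and not as support. OSGIN1, a growth inhibitor induced by oxidative stress, rose with compounds 4 (1.19, SE 0.253, adjusted p = 0.0211) and 5 (1.69, SE 0.254, adjusted p = 0.00826).

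The 3 fibrinogen chains, clotting factors secreted by hepatocytes, moved apart between the compounds. FGG was at 954 and 1072 CPM with DMSO, 604 and 495 CPM with compound 4, 1225 and 1373 CPM with compound 5, and 720 and 661 CPM with compound 6. FGA and FGG fell with compound 4 (−0.62 and −0.88, adjusted p = 0.0322 and 0.00529), and with compound 5 FGB rose (0.53, adjusted p = 0.0301), as did UGT2B4, a glucuronosyltransferase (0.74, adjusted p = 0.0397). With single libraries left out, FGA ran over −0.848 to −0.434 and FGG over −1.045 to −0.745 with compound 4, and FGB over 0.417 to 0.647 with compound 5. None of these calls of FGA, FGG and FGB held in every such fit. The call of UGT2B4 was lost with DESeq2 (adjusted p = 0.0975), in the fit of the 4 samples compared (0.0578) and without 6 of the 8 libraries, all but those of compound 4 (0.0565–0.183). With compound 6 the log2-fold changes of FGA, FGB and FGG were −0.59, −0.47 and −0.55, none past the threshold with edgeR. All 3 chains were lower with compound 4 than with compound 5 (−1.16, −0.91 and −1.24) and lower with compound 6 than with compound 5 (−1.13, −0.997 and −0.911), each past the threshold. Between compounds 4 and 5, the calls of FGA and FGB were lost in the fit of the 4 samples compared (adjusted p = 0.0645 and 0.0781). The call of FGA was also lost without DMSO replicate 1, compound 4 replicate 2 or either compound 5 library (0.0506–0.0955). The call of FGB was also lost without either compound 4 library, compound 5 replicate 2 or compound 6 replicate 1 (0.0556–0.128). FGA with compound 5 was at 0.54 against DMSO (adjusted p = 0.0552) and passed the threshold with the replicate number as a block (0.0346). APOA1, APOB, TF and AFP fell with compound 4 as well, and their part in the values of the fibrinogen genes was not tested.

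Between the compounds, 6 of the 37 other genes differed between compounds 4 and 5 (1 higher and 5 lower with compound 4), 7 between compounds 6 and 5 (1 higher and 6 lower with compound 6) and 0 between compounds 4 and 6. These are 16.2%, 18.9% and 0% of the 37, beside 0.313%, 1.03% and 0% of all tested genes. The calls of the first and second pair include KNG1, which entered the test only through the compound 5 libraries, so its part in these shares is not support. DESeq2 also called 0 of the 37 between compounds 4 and 6, where it called 59 of all 13400 tested genes. Of the 13 calls, 3 held with each library left out in turn, those of SLC51A, ABCC3 and FGG between compounds 4 and 5. Without compound 6 replicate 1, 8 were lost, and without compound 6 replicate 2, 4. Without compound 4 replicates 1 and 2, 2 and 3 were lost, without compound 5 replicates 1 and 2, 2 and 4, and without DMSO replicate 1, 1.

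**Figure D3:**
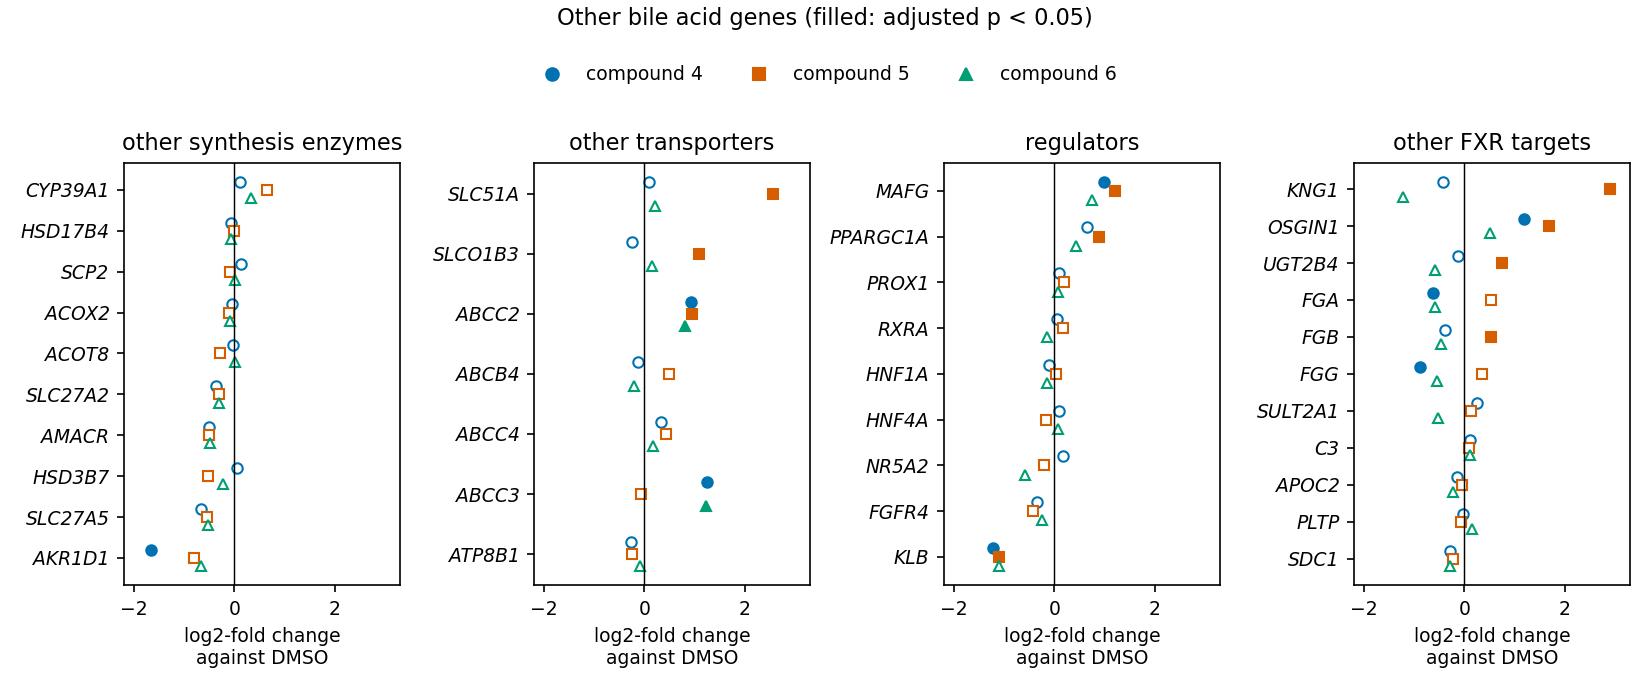
Log2-fold change against DMSO (x axis) of the 37 tested other bile acid genes (y axis), in 4 panels by list. Circles, squares and triangles are compounds 4, 5 and 6 as edgeR estimates from 2 replicates per group, and filled symbols passed the threshold of 0.05. KNG1 (2.90) and SLC51A (2.58) lie farthest right with compound 5, and AKR1D1 (−1.66) lies farthest left with compound 4.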

How the data were processed

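RNA from 8 samples was sequenced after directional library preparation. The authors checked the reads with FastQC 0.12.0, estimated transcript abundance with Salmon 1.5.0 on GRCh38, summed it per gene with tximeta, and deposited the estimated counts as whole numbers without normalization. Per the labels, the libraries of DMSO replicate 1 and compound 4 replicate 1 were merged from more than a single one. Positions are from GENCODE 29 on GRCh38.

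The deposited expected counts were analysed with edgeR 4.0.16 in R 4.3.3. Of 60230 genes, 13400 passed filterByExpr at a minimum count of 10, and a single quasi-likelihood fit by group over the 8 samples gave the tests, with Benjamini-Hochberg adjustment and a threshold of 0.05. Standard errors, 95% intervals and adjusted p-values all come from this fit. With 2 replicates per group an exact permutation test cannot pass the threshold. Nothing in the labels says that replicates are separate cultures beyond the day, so p-values measure the spread between these samples. The detection floors cover counting error only. The test was checked on simulated data. The alternatives were a block for the replicate number, DESeq2 1.42.0, the 4 samples compared alone, DESeq2 size factors, no filter on low counts, at least 10 counts in every sample, and omission of single libraries. The day in the labels pairs the samples, and deviations of same-numbered samples correlated at −0.163 to 0.302 across the tested genes. Python 3.11.15 was used for summaries and plots.

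The genes, lists and promoter motifs were chosen with earlier results of these data known. Promoter windows of CYP7A1, CYP7B1, CYP8B1, NR0B2 and FGF19 were not read. Named genes are the 10 bile acid genes, each gene of the other lists that passed the threshold against DMSO or otherwise the highest and lowest of a list, and the 3 genes with the highest correlation to each of the 10 that changed. A gene that this rule takes is not reported here.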

Additional observations from a re-analysis of the deposited data

How the results depend on the processing

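The calls of SLC51B and NR0B2 with compound 5 held in all 14 alternatives. Counted over the 10 bile acid genes, the number past the threshold with compound 6 was 0, and it was 2 with DESeq2, 2 without the filter on low counts, 1 in the fit of the 4 samples compared and 1 with at least 10 counts in every sample. Over all genes, 77 of 13400 passed, and in these alternatives 547 of 13400, 1355 of 23080, 1023 of 12998 and 198 of 12091, in that order. The fit of the 4 samples compared gave 0 in place of 1 between compounds 4 and 5, and 1 in place of 2 between compounds 6 and 5. Over all genes of these fits, 10 of 13063 and 49 of 13035 passed. Without the filter, 1 was called between compounds 4 and 6, where 259 of 23080 genes were. With 1 library left out the counts were 0–4 with compound 4, 2–3 with compound 5, 0–1 with compound 6, 0–1 for compound 4 against 5, 0–1 for compound 6 against 5, and 0 for compound 4 against 6.

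Of the other bile acid genes, the fit without the filter called 13 with compound 4 (in place of 8), 18 with compound 5 (in place of 10), 9 with compound 6 (in place of 2), 11 for compound 4 against 5 (in place of 6), 13 for compound 6 against 5 (in place of 7) and 2 for compound 4 against 6 (in place of 0). Over all 23080 genes of that fit, 2383, 2431, 1355, 750, 990 and 259 passed, in the same order. With compound 6, DESeq2 called 7 and the 4 samples compared 8, where 547 of 13400 and 1023 of 12998 genes passed. With 1 library left out the counts were 1–10, 2–11 and 0–3 with compounds 4, 5 and 6, and 3–6 for compound 4 against 5, 0–7 for compound 6 against 5 and 0 for compound 4 against 6. The alternatives for the comparisons between compounds of these other genes were added after the data were seen. Over all tested genes, DESeq2 called 547 with compound 6 in place of 77 and 59 between compounds 4 and 6 in place of 0, and the cause was not tested. Without DMSO replicate 2, 43 genes passed with compound 4 in place of 1275 and 2 with compound 6.

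The replicate block moved BAAT with compound 5 past the threshold (adjusted p = 0.0418) and changed no other call of the 10 genes. Of the other bile acid genes it ended no call and added 6, AMACR (0.0368), SLC27A5 (0.0372) and PPARGC1A (0.0376) with compound 4 and AMACR (0.0429), FGA (0.0346) and FGFR4 (0.0333) with compound 5, as adjusted p. Signs turned only with 1 library left out, in values that were not past the threshold. The log2-fold change of CYP8B1 against DMSO ran over −1.55 to 0.21, −0.68 to 0.16 and −0.74 to 0.72 with compounds 4, 5 and 6, and between compounds over −1.25 to 0.50 (4 and 5), −0.43 to 1.02 (6 and 5) and −1.71 to 0.29 (4 and 6). CYP27A1 with compound 5 ran over −0.00516 to 0.118, BAAT over −0.0312 to 0.271 with compound 6 and −0.00918 to 0.288 for compound 4 minus compound 5, and NR1H4 with compound 6 over −0.390 to 0.0555. With a detection limit of 10 counts in each library in place of 3, CYP7A1 joined CYP7B1 and ABCB11, making 3 genes below detection. Where a library was left out, its group rested on 1 sample, whose spread was taken from the other groups. Low counts limit what can be said of CYP8B1, CYP7A1 and FGF19, and more so of CYP7B1 and ABCB11, which were below detection. Overlaps such as that of CYP8B1 with ACKR2 were read from whole gene spans and not from exons. Whether such genes share counted reads was not tested, and whether strand was used is not known.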
